A study of Homo sapiens with 19 samples.

Results

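The end state of an inducible EED knockout was compared with a constitutive EED knockout in H1 cells, an established human embryonic stem cell (hESC) line. The comparison rests on 4 of the 19 RNA-seq samples of the series. The late samples were H1-EED-/-/EED-OE cells, in which EED is deleted and a doxycycline (DOX) dependent EED transgene is carried, taken 24 days (1 sample) and 28 days (1 sample) after DOX was withdrawn. The other group was EED-/- H1 cells, which carry the EED deletion and no transgene (2 samples, whose labels give them different names). The references were WT H1 cells (2 samples) and H1-EED-/-/EED-OE cells kept with DOX (1 sample). All of these cells share the H1 background, and apart from WT H1 all of them carry the EED deletion. Samples of EZH1-/-, EZH2-/-, EZH2-/-/EZH1-/- and SUZ12-/- H1 (2 samples each) lent their spread to some fits.

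The late samples are a single inducible line at a pair of times, so the spread between them includes 4 days of change and is not a spread between replicates. Nothing in the labels says that the samples of a group were separate cultures. The p-values therefore measure only the spread between these samples, which may be technical. The inducible line and the constitutive knockout were deposited as separate sets of files, so line, file set and mode of EED loss cannot be told apart. In bulk RNA, fewer cells of a type and less RNA per cell cannot be told apart either.

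EED is a core subunit of polycomb repressive complex 2 (PRC2), which methylates lysine 27 of histone H3. EED binds the methylated mark and is needed for the catalytic activity of EZH2 and EZH1, while SUZ12 holds the complex together. In hESCs the mark lies over the promoters of developmental regulators, among them the HOX clusters and many lineage transcription factors, which stay silent while the cells self-renew. The question of the comparison is what cells that lost EED by DOX withdrawal share with cells that carry the deletion without a transgene, and what they lack.

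Expression is given as TPM, the share of all transcripts that a gene takes, with every sample brought to an equal sum. A TPM of at least 1 was found for 15636 genes at day 24, 16223 at day 28, and 16880 and 16454 in the EED-/- H1 samples. Sequencing depth is unknown, so no interval that needs a depth is given. Differences below are of log2(TPM + 1), late minus EED-/- H1 unless another pair is named, and they understate the change of genes with low TPM. Of all genes, 16777 reached a TPM of 1 in at least 2 of the 4 samples and were tested. A gene that did so in 1 group alone passed through the group where it is high, so its direction was fixed by the filter. Counts of positive and negative differences, of values without overlap and of 3-fold separations include such genes. The median gene differed by -0.17, and by -0.03 after scaling by median ratios, so a small negative difference is the level of the whole table.

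EED itself had a TPM of 17.3 and 22 in WT H1, 14.2 and 22.4 in EED-/- H1, 109 with DOX, and 21.6 and 31.6 at days 24 and 28. The fall of EED on withdrawal was past the thresholds (log2 difference late minus +DOX -2.01, adjusted p = 0.00937, limma). The EED TPM of the knockout samples was near that of WT H1. TPM is given per gene and not per exon, so it does not check the knockout label, and transcript of the transgene cannot be told from that of the deleted locus. SUZ12, EZH1 and EZH2 were not called in late against EED-/- H1. Their TPM at days 24 and 28 was 19.3 and 17.9 for SUZ12, 9.82 and 14.4 for EZH1, and 33.9 and 33.2 for EZH2. In the EED-/- H1 samples it was 25.6 and 21.2, 17.2 and 11.8, and 18.7 and 33.1 in the same order.

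The transcriptome lay nearer to the knockout samples at day 28 than at day 24. The median absolute log2 difference over the tested genes was 0.373 between day 28 and the second EED-/- H1 sample and 0.467 between day 28 and the first, against 0.301 between the EED-/- H1 samples. For day 24 these distances were 0.527 and 0.611. Genes that differed 3-fold or more made up 2.77% and 6.05% for day 28, 8.29% and 12.0% for day 24, and 2.01% between the knockout samples. Across 28295 genes with a TPM above 0 in any sample, Spearman's rho with the EED-/- H1 samples was 0.876 and 0.889 at day 20, 0.916 and 0.926 at day 24, and 0.933 and 0.944 at day 28. Genes are not independent replicates, so these values are a description. Days 24 and 28 had rho of 0.938 with each other.

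A direct test called 1 gene higher and 1 gene lower in the late samples (limma, at least a 3-fold change at an FDR of 1%). Each is 0.00596% of the 16777 genes tested, and both are 0.0119%. An unadjusted p below 0.05 was reached by 2989 genes (17.8%). The 4 samples leave 2 residual degrees of freedom, and the count moved with the spread that was used. With the spread taken over 14 samples, 36 genes were called higher (0.215%) and 122 lower (0.727%), 0.942% in all. These 14 were the 2 late samples and the 12 of WT, EZH1-/-, EZH2-/-, EZH2-/-/EZH1-/-, EED-/- and SUZ12-/- H1. The SUZ12-/- H1 pair in that set differed by a median of 0.119. Without it, a choice made after seeing the data, 13 genes were called higher (0.0775%) and 47 lower (0.28%), 0.358% in all. Leaving out 1 of the 4 samples gave 0 to 2 genes higher and 0 or 1 lower. No gene was called higher without day 24 or without day 28, and 2 were without the second EED-/- H1 sample. No gene was called lower without day 24 or without the first EED-/- H1 sample.

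The gene called lower was S100A6, a calcium-binding protein of the S100 family. Its TPM was 6.85 at day 24 and 13.7 at day 28, against 1521 and 1391 in EED-/- H1, 59.0 and 46.3 in WT H1, and 1.12 with DOX. The groups lay far apart (log2 difference -7.08, SE 0.33, adjusted p = 0.00503, limma), and the EED-/- H1 mean was 142-fold the late mean. Both lines nonetheless rose from their own references, by 2.34 in the inducible line (adjusted p = 0.00642, limma) and by 4.77 in the constitutive one (adjusted p = 0.000154, limma). S100A6 lies at chr1:153534599-153536244 (GRCh38, minus strand), within a cluster of S100 genes. S100A10 stood at 1013 and 1389 in the late samples and 656 and 1083 in EED-/- H1, and S100A16 at 135 and 389 against 415 and 301, so these relatives, picked after their values were seen, overlapped between the groups. S100A14, of the same family, differed by -0.63. Other members are not given, so these relatives do not stand for the cluster.

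The gene called higher was RP11-138I1.4, a long noncoding RNA at chr17:16382152-16382669 on the minus strand. It was at 173 and 154 in the late samples, listed at 0 in both EED-/- H1 samples, at 58.0 and 84.0 in WT H1, and at 296 with DOX (adjusted p = 0.00446, limma). The value is uncertain, and the gene passed the filter through the late samples alone. The RNA lies wholly inside UBB, a polyubiquitin gene on the opposite strand, and the counting is not stated to use strand. UBB was at 1181 and 1055 in the late samples and 1099 and 978 in EED-/- H1. RP11-138I1.4 also differed within a line, with 150 and 2.38 in the EZH2-/- H1 samples, and it was not called with the spread that left out the SUZ12-/- H1 pair.

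What the knockout and the withdrawal had in common was read from their own references, which share no sample. In a fit of 7 samples over 17737 genes, 2638 genes rose in EED-/- H1 against WT H1 (14.9% of those tested) and 1066 fell (6.01%). On withdrawal, against the DOX sample, 1432 rose (8.07%) and 392 fell (2.21%). Of these, 1140 rose in both, 43.2% of the rises in EED-/- H1 and 79.6% of those on withdrawal. Falls were shared by 324 genes, 30.4% of the falls in EED-/- H1 and 82.7% of those on withdrawal. No gene was called in opposite directions, while 1 was after scaling by median ratios and 1 without day 28. At an FDR of 5% with no limit on the fold, 5 genes rose in EED-/- H1 and fell on withdrawal, and 34 fell in EED-/- H1 and rose on withdrawal. The interaction, the change on withdrawal minus the change on knockout, called 0 genes in either direction, beside 2311 genes at an unadjusted p below 0.05 (13%). The lone DOX sample was assumed to vary like the others. That sample was not called different from WT H1 at any gene (0%, limma, with 3444 genes at an unadjusted p below 0.05).

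The counts moved with single libraries and with scaling. Rises in EED-/- H1 numbered 978 and 961 without the first and second WT H1 sample, and 991 and 1581 without the first and second EED-/- H1 sample. Falls numbered 335 and 335, and 436 and 673. Without day 24, 2276 genes rose and 622 fell on withdrawal. Without 1 of the WT H1 or EED-/- H1 samples, which lend their spread to the fit, 593 to 703 rose and 101 to 180 fell on withdrawal. Scaling by median ratios gave 1176 rises and 616 falls on withdrawal, and 2165 rises and 1365 falls in EED-/- H1.

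The approach to the knockout was late. Among the 2638 genes that rose in EED-/- H1, the median rise there was 2.52 on the log2 scale. The same genes had a median difference from the DOX sample of 0.32 at day 8, 0.4 at day 16, 0.95 at day 20, 1.86 at day 24 and 2.23 at day 28. For the 1066 genes that fell the knockout median was -2.31, and the medians were -0.11 at day 16, -0.61 at day 20, -1.49 at day 24 and -1.8 at day 28. The genes were chosen on the knockout samples, whose median is inflated by that choice. Day 28 was nearer than day 24 to the mean of EED-/- H1 at 10536 of the 16777 tested genes (62.8%), at 71.2% of the knockout rises and at 65.2% of the knockout falls. Each day is 1 sample, so a difference between days has no replicate check.

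HOX genes rose in both end states. Of 36 HOX genes tested, the segment identity factors, 35 rose in EED-/- H1, 26 rose on withdrawal, and all 26 were among the 35. The shares of all tested genes that rose were 14.9% in EED-/- H1 and 8.07% on withdrawal. Their median difference between the groups was 0.03. Values did not overlap for 8 HOX genes that were higher and 9 that were lower in the late samples, where 18.1% of all genes were higher and 34.7% lower in that sense. HOXB9, a posterior HOX gene, was at 116 and 30.1 in the late samples and 62.1 and 35.3 in EED-/- H1, from 0 in WT H1 and 0.18 with DOX. HOXD13 was at 18.9 and 10.3 against 11.8 and 21.3. For HOXB9 and HOXD13 the ranges of the groups overlapped.

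Outside the HOX clusters, 18 of 37 other homeobox and T-box genes rose in EED-/- H1 and 13 of these rose on withdrawal, with no further rise on withdrawal. The shares of all tested genes were 14.9% and 8.07%. MSX2, a target of BMP signalling, was at 59.5 and 60.7 in the late samples and 52.4 and 52.1 in EED-/- H1. PITX1, a hindlimb factor, was at 116 and 242 against 264 and 190. Both were at 1.52 or lower with DOX and at 1.06 or lower in WT H1.

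Endoderm and cardiac factors were shared as well. All 9 endoderm factors that rose on withdrawal were among the 12 that rose in EED-/- H1, of 19 tested in that fit. The shares of all tested genes that rose were 14.9% in EED-/- H1 and 8.07% on withdrawal. GATA4, an endoderm and heart factor, was at 203 and 213 in the late samples, 103 and 98.1 in EED-/- H1 and 0.52 with DOX. SOX17, a definitive endoderm factor, was at 83.3 and 95.7 against 37.1 and 44.9. TBX3 was at 50.8 and 56.9 against 46.5 and 51.3. GATA4 and SOX17 thus lay above the knockout in both late samples, but neither difference was called (adjusted p = 0.191 and 0.199, limma). Of 18 endoderm factors tested in the 4 samples, 12 had a positive difference and 6 a negative one, with a median of 0.09. Values did not overlap for 6 that were higher and 3 that were lower, beside 18.1% and 34.7% of all genes. Of 21 cardiac genes, 10 rose in EED-/- H1 and 8 of these on withdrawal, with no others. NKX2-5, a cardiac progenitor factor, was at 38.1 and 32.4 against 40.2 and 26.1, and ISL1 was at 31.2 and 30.7 against 18.8 and 49.2. Between the groups the cardiac median was 0.34, with 14 positive and 6 negative differences. The largest were HAND1 (2.7) and HAND2 (2.18), and 0 cardiac genes were called in the direct test.

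Endothelial genes and the cell cycle inhibitors of the CDKN2 locus also rose in both. Of 23 endothelial genes, 17 rose in EED-/- H1, 14 rose on withdrawal and 13 did both, and the median difference was -0.2 (0.01 after quantile normalization). The shares of all tested genes that rose were 14.9% and 8.07%. PLVAP, a component of endothelial fenestrae, was at 490 and 286 in the late samples and 154 and 172 in EED-/- H1, against 0.49 with DOX. CD34, of endothelial and blood progenitors, was at 172 and 140 against 156 and 74.5. PLVAP and CD34 are among 11 endothelial genes with a positive difference, and 12 had a negative one, such as PECAM1 (-1.48) and VWF (-1.54). At least 3-fold apart were 0 that were higher and 2 that were lower, LYVE1 and MMRN1 (values below), beside 0.203% and 0.733% of all genes. CDKN2A, a known PRC2 target that encodes the inhibitor p16, was at 310 and 518 against 563 and 445. Its neighbour CDKN2B was at 40.0 at day 24 and 362 at day 28, against 562 and 428 in EED-/- H1.

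Most extracellular matrix genes rose in both lines, and none was called between the end states, also with the spread of 14 or 12 samples. Of 37 matrix genes, 33 rose in EED-/- H1, and 28 of these, with no others, rose on withdrawal. The shares of all tested genes that rose were 14.9% and 8.07%. The median rise was 4.98 in EED-/- H1 and 4.34 on withdrawal. Between the groups the median difference was -0.65, beside -0.17 for all genes, and it was -0.48 after scaling and -0.69 after quantile normalization. FN1, which encodes fibronectin, was at 11341 and 11092 in the late samples and 11338 and 11452 in EED-/- H1. COL3A1, a fibrillar collagen, was at 2534 and 1237 against 2070 and 1873. LUM, a small proteoglycan, was at 277 and 361 against 740 and 646, and SPARC, a collagen-binding glycoprotein, at 4149 and 5694 against 9350 and 7216. Values did not overlap for 21 matrix genes that were lower and for 1 that was higher, beside 34.7% and 18.1% of all genes. After scaling these were 20 and 2, beside 28.3% and 24.9% of all genes.

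Of the 21 lists, secreted proteins of liver and yolk sac had the median farthest from that of all genes. Of 25 such genes tested, 24 had a negative difference, with a median of -1.23 (-1.08 after scaling). Values did not overlap for 17 that were lower and for 0 that were higher, beside 34.7% and 18.1% of all genes. In EED-/- H1 14 of them rose, and 4 of these rose on withdrawal, beside 14.9% and 8.07% of all genes. No member was called in the direct test. With the spread of 14 samples 3 were called lower, and without the SUZ12-/- H1 pair 2 were, beside 0.727% and 0.28% of all genes. APOA1, APOA2 and VTN were among the 4 that rose in both. APOA1, the main protein of high-density lipoprotein, was at 217 and 524 in the late samples and 561 and 1081 in EED-/- H1.

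AFP, the fetal counterpart of albumin, was at 1.03 at day 24 and 7.94 at day 28. In EED-/- H1 it was at 163 and 768, in WT H1 at 10.2 and 14.3, and with DOX at 2.97. Day 24 thus lay below all 3 reference samples and day 28 between them, and the difference of -6.38 (SE 0.93) was not called with 4 samples (adjusted p = 0.16, limma), but was with the spread of 14 (adjusted p = 0.000473, limma). The EED-/- H1 samples differed between themselves, and the SUZ12-/- H1 samples were far higher, with 13208 in the first. TTR, a carrier of thyroid hormone and retinol, was at 30.6 and 324 against 535 and 1694, from 0 in WT H1 and with DOX. SERPINA1, the protease inhibitor alpha-1 antitrypsin, was at 1.64 and 5.19 against 33.0 and 107. FGB, a chain of fibrinogen, was at 0.25 and 0.67 against 6.75 and 84.8. It passed the filter through EED-/- H1 alone, so its direction was fixed by the filter, and the counts of the list include it. For AFP, TTR, SERPINA1 and FGB day 28 lay above day 24 and below both knockout samples.

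Other genes with low values in the late samples were picked after their values were seen and stand for no group. SEMA3C, a secreted guidance protein, was at 3.03 and 23.6 in the late samples and 322 and 156 in EED-/- H1. KRT7, a keratin of simple epithelia, was at 7.16 and 49.4 against 256 and 383. ITGB6, an epithelial integrin subunit, was at 0.23 and 9.53 against 50.3 and 64.7. LYVE1, a hyaluronan receptor of lymphatic endothelium, was at 0.17 and 1.25 against 15.3 and 9.83, and MMRN1, also of lymphatic endothelium, at 1.21 and 4.88 against 24.1 and 19.9. DKK3, of the Dickkopf family of secreted proteins, was at 54.7 and 96 against 459 and 294. COL8A1, a short-chain collagen, was at 4.22 and 6.54 against 51.0 and 37.7. QPCT, which forms pyroglutamate at the ends of peptides, was at 0.59 and 0.58 against 106 and 51.9 and at 0.40 with DOX. QPCT passed the filter through EED-/- H1 alone. These 8 genes rose in EED-/- H1 and none of them was called on withdrawal. Their groups did not overlap, and the direct test gave adjusted p from 0.0317 for QPCT to 0.199 for ITGB6 (limma).

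Among all tested genes 123 (0.733%) had late values that lay at least 3-fold below both knockout values, and 34 (0.203%) lay at least 3-fold above. These counts include genes that passed the filter through a single group, whose direction was thereby fixed. Scaling by median ratios gave 102 (0.608%) and 41 (0.244%). Day 28 was nearer than day 24 to the knockout for 80 of the 123 genes (65%) and for 17 of the 34 (50%), beside 62.8% of all genes.

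Most pluripotency genes had higher values in the late samples than in the knockout. Of 17 pluripotency genes tested in the 4 samples, 15 had a positive difference, with a median of 0.73 (0.88 after scaling). Values did not overlap for 8 that were higher and 0 that were lower, beside 18.1% and 34.7% of all genes. None was called in the direct test. Against their own references 15 of 21 fell in EED-/- H1, and 12 of these, with no others, fell on withdrawal. The shares of all tested genes that fell were 6.01% and 2.21%. POU5F1, which encodes OCT4, was at 46.2 and 33.6 in the late samples and 5.27 and 3.62 in EED-/- H1, from 2531 and 2428 in WT H1 and 2916 with DOX. Its late mean was 8.98-fold the knockout mean. It fell by 6.17 on withdrawal (adjusted p = 0.000156, limma) and by 8.85 on knockout (adjusted p = 1.21e-05, limma), and the groups differed by 2.91 (SE 0.34, adjusted p = 0.0996, limma). NANOG was at 6.77 and 1.71 against 0.60 and 0.37. UTF1, a chromatin protein of pluripotent cells, was at 3.74 and 1.86 and listed at 0 in both knockout samples. NANOG and UTF1 reached a TPM of 1 in the late samples alone, so their direction was fixed by the filter. The counts of positive differences and of values without overlap include both genes. SOX2, a core pluripotency factor, differed the other way on the log2 scale (-0.91), with 2.1 at day 24 and 35.9 at day 28 against 22.6 and 16.1. DNMT3B, a de novo DNA methyltransferase, was at 21.5 and 32.6 against 30.9 and 19.6.

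Mitotic genes stood between the proliferating references and the knockout. Of 30 cell cycle genes, 19 fell in EED-/- H1 and 5 of these fell on withdrawal, beside 6.01% and 2.21% of all genes. The median difference was 0.73 (0.9 after scaling), and values did not overlap for 19 that were higher and 6 that were lower, beside 18.1% and 34.7% of all genes. CDC20, an activator of the anaphase-promoting complex that is outside the list, was at 104 and 66.8 in the late samples and 13 and 22.6 in EED-/- H1, from 226 and 218 in WT H1 and 305 with DOX. AURKB, a mitotic kinase, was at 64.7 and 26.1 against 5.28 and 8.84. PLK1, another mitotic kinase, was at 79.3 and 34.1 against 6.83 and 11.2. In each, day 24 was higher than day 28, and day 28 was higher than both knockout samples. Day 28 was nearer than day 24 to the knockout at 27 of the 30 genes (90%). None of the 30 was called in the direct test. AURKB and PLK1 were called higher with the spread of 14 samples and not without the SUZ12-/- H1 pair, and CDC20 was called with both.

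Some genes had late values well above the knockout. IGF2, a paternally expressed growth factor, was at 2718 and 1446 in the late samples, 368 and 540 in EED-/- H1 and 3.74 with DOX. Its maternally expressed neighbour H19 was at 4498 and 1121 against 488 and 0.27, so the knockout samples differed widely between themselves, and H19 was called in neither line. APLNR, the apelin receptor of mesoderm and vessels, was at 95.4 and 69.7 against 7.40 and 11.7. TMEM88, a WNT inhibitor of the early heart lineage, was at 254 and 250 against 20.1 and 76.4. SST, which encodes somatostatin, was at 323 and 68.8 in the late samples, 0.47 and 2.48 in EED-/- H1 and 0.41 with DOX. SST rose on withdrawal (log2 difference 6.74, adjusted p = 0.0037, limma) and was not called in EED-/- H1 against WT H1 (0.28, adjusted p = 0.771), but the interaction was not called (adjusted p = 0.222, limma). TCEAL2, chosen like APLNR, TMEM88 and SST after its values were seen, fell in both lines and was at 19.1 and 18.1 against 2.06 and 2.44.

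Part of what the late samples lacked was also low in the inducible line kept with DOX. That is 1 sample, whose title carries a day 28 mark, so it may be a culture run beside the withdrawal and not the state before it. Of the 123 genes that lay at least 3-fold below the knockout, 19 (15.4%) also lay at least 3-fold lower in the DOX sample than in both WT H1 samples, which was true of 1.47% of all tested genes. Of the 34 that lay above, 4 (11.8%) lay at least 3-fold higher in the DOX sample, beside 0.262% of all genes. None was separated in opposite directions. The 123 and the 34 were chosen on samples of the inducible line, and each comparison sets that line against the other file set. All tested genes are not matched to them in level, so these shares are a description and no test. S100A6 and RP11-138I1.4 are in these groups.

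Several of the 19 were at or near 0 throughout the inducible line. CAT, which encodes the peroxide-degrading enzyme catalase, was at 0.20 with DOX, listed at 0 from day 8 to day 24 and at 0.35 at day 28, against 14.4 and 13.2 in WT H1 and 35 and 32.7 in EED-/- H1. HENMT1, which methylates the ends of piRNAs, was listed at 0 in all 7 samples of the line, against 6.39 and 7.53 in WT H1 and 12.3 and 11.6 in EED-/- H1. CBR1, a carbonyl reductase, was at 2.89 with DOX and listed at 0 from day 16 on, against 120 and 107 in WT H1 and 24.2 and 10.7 in EED-/- H1. ACOT2, a mitochondrial thioesterase, was at 0.35 with DOX and at 1.10 and 0.68 in the late samples, against 9.65 and 13.5 in WT H1 and 35.9 and 26.6 in EED-/- H1. All late values of these 4 genes lay below both WT H1 values. CAT, HENMT1 and CBR1 passed the filter through EED-/- H1 alone.

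A pair of neighbours shared the pattern. PUS7L, a pseudouridine synthase gene, and IRAK4, a kinase gene of innate immune signalling, start 151 bases apart on opposite strands of chromosome 12. PUS7L was at 0.04 with DOX and 0.02 and 0.08 in the late samples, against 4.67 and 5.03 in WT H1 and 8.64 and 5.11 in EED-/- H1. IRAK4 was at 0.05 with DOX and 0.20 and 0.08 in the late samples, against 1.74 and 1.94 in WT H1 and 13.5 and 6.5 in EED-/- H1. IRAK4 did not reach the 3-fold separation of the DOX sample from WT H1. Both neighbours passed the filter through EED-/- H1 alone. Neither gene nor CAT, HENMT1, CBR1 or ACOT2 was called in the direct test with 4 samples (adjusted p from 0.0317 to 0.16, limma), and all 6 were called lower with the spread of 14 samples.

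Promoters are shown for CAT and IRAK4, which were low throughout the inducible line, and for AFP, whose late values lay below both WT H1 samples, because they differ in their number of CpG dinucleotides, the main site of DNA methylation. The 250 bases before the start are shown from RefSeq on GRCh38.p14, 5′ to 3′ on the gene's strand, with each CpG in capitals. The windows are chr11:34438684-34438933 (plus strand) for CAT, chr12:43758701-43758950 (plus strand) for IRAK4, which holds the stretch between IRAK4 and PUS7L, and chr4:73435971-73436220 (plus strand) for AFP.

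CAT: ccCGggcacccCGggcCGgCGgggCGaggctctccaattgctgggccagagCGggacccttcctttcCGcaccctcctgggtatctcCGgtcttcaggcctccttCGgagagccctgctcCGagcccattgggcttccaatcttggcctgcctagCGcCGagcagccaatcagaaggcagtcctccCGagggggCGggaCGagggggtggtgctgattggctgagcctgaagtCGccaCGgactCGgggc

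IRAK4: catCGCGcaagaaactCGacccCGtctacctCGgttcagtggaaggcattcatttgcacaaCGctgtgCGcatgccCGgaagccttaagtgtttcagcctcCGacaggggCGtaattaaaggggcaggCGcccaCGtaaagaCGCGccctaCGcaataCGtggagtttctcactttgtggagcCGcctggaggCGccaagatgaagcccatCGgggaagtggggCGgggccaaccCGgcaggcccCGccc

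AFP: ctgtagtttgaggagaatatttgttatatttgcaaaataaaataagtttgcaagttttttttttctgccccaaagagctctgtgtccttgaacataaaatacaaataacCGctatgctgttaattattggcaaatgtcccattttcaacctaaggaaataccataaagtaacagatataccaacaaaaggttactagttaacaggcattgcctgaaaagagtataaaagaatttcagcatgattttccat

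The CAT window held 18 CpG, a number reached by 64.3% of the windows of tested genes. The IRAK4 window held 22 (48.5%), and the AFP window held 1 (99.1%). A promoter was found in the table for 8095 of the tested genes, with a median of 21 CpG. For the genes low in the late samples that were also low with DOX the median was 18 (8 of 19 genes found), and for the other genes low in the late samples it was 11 (43 of 104 found). By the 3-fold rule CAT counts in the former group, and IRAK4 and AFP in the latter. A window with at least 10 CpG was found for 7 of the 8, for 24 of the 43 (55.8%) and for 85% of all tested genes. Fewer than 80% of the genes of either group were found, so a comparison of the groups is void, and no methylation was measured.

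Medians by chromosome differed. Late minus EED-/- H1 ran from -0.377 on chromosome 4 to 0.044 on chromosome 19, and DOX minus WT H1 was -0.298 and 0.224 on the same chromosomes. The comparisons share no sample but both set a file of one set against a file of the other. The part of the file set in the differences was not tested.

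Markers of other cell types were counted as lists. The shares of all tested genes that rose were 14.9% in EED-/- H1 and 8.07% on withdrawal. Of 18 trophoblast and amnion genes 11 rose in EED-/- H1 and 4 of these on withdrawal, with a median difference of -0.07 that became 0.05 after scaling. IGFBP3 was at 418 and 478 in the late samples and 374 and 394 in EED-/- H1. It was among 7 members with a positive difference, while 11 had a negative one. At least 3-fold apart were 0 that were higher and 2 that were lower, beside 0.203% and 0.733% of all genes. The 2 were ITGB6 (-4.01) and KRT7 (-3.95), and no member was called in the direct test. Of 18 neural genes 7 and 2 rose, with a median difference of 0.01. The neural rises on withdrawal were thus near the share of all genes, and those in EED-/- H1 were above it. Between the groups 9 differences were positive and 8 negative, and none was called in the direct test. The largest were negative, for PAX6 (-3.0), NCAM1 (-2.4) and MAP2 (-2.04). PAX6 was called higher in EED-/- H1 against WT H1 (5.72) and was not called on withdrawal (2.78). Of 8 blood genes 5 and 4 rose. RUNX1, a blood factor, was at 1.62 at day 24 and 30.7 at day 28, against 52.9 and 33.1 in EED-/- H1. It was among the 3 blood genes with a negative difference, while 4 had a positive one, and the blood median was 0.56. Of 17 smooth muscle genes 10 and 7 rose, 6 of them in both. Between the groups 12 of 16 had a negative difference, with a median of -0.55 (-0.38 after scaling). Values did not overlap for 10 that were lower and 2 that were higher, beside 34.7% and 18.1% of all genes. After scaling these were 7 and 2, beside 28.3% and 24.9%. Of 13 primitive streak genes 4 rose in EED-/- H1 and the same 4 rose on withdrawal. Between the groups 7 differences were positive and 6 negative, such as CER1 (-3.0) and LEFTY1 (-2.55), with a median of 0.23. Values did not overlap for 3 that were higher and 4 that were lower, beside 18.1% and 34.7% of all genes. T and MIXL1, which mark the streak itself, were at 186 and 164 at day 20, before the late samples. By days 24 and 28 they were at 0.74 and 13.1 for T and 3.08 and 5.33 for MIXL1, against 3.74 and 1.56 and 2.15 and 1.85 in EED-/- H1.

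Genes of signalling pathways were counted in the same way, beside rises of 14.9% and 8.07% among all tested genes. Of 37 BMP and activin genes 20 rose in EED-/- H1, 14 on withdrawal and 13 in both, with a median difference of -0.01 (0.16 after scaling). BMP4, a ligand, was at 368 and 152 in the late samples and 92.5 and 207 in EED-/- H1, while GREM1, a secreted BMP inhibitor, was at 46 and 44.5 against 215 and 146. Of 33 WNT and FGF genes 14 and 8 rose, 7 in both, with a median of -0.26, and DKK1, a secreted WNT inhibitor, was at 211 and 104 against 168 and 254. SFRP2, another secreted WNT inhibitor, fell in both, to 10.6 and 5.98 against 10.4 and 11, from 685 with DOX and 563 and 434 in WT H1.

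Of 26 genes of the epithelial-mesenchymal transition 15 and 13 rose, 12 in both, with a median of 0.3. The shares of all tested genes that rose were 14.9% in EED-/- H1 and 8.07% on withdrawal. CDH11, a mesenchymal cadherin, was at 316 and 232 in the late samples and 327 and 232 in EED-/- H1. Of 21 imprinted genes 9 rose in EED-/- H1 and 6 of these on withdrawal, with a median of 0.18. Of 31 MHC and interferon genes 6 and 3 rose, 3 in both, with a median of -0.04 (0.13 after scaling), and ISG15, an interferon-induced ubiquitin-like protein, was at 119 and 134 against 148 and 134. Of 26 clustered protocadherins, which share exons so that their reads are uncertain, 4 and 2 rose, 1 in both, with a median of -0.59. The MHC and interferon genes and the protocadherins thus rose at shares near those of all genes. Of 14 genes for PRC2 subunits and cofactors none was called in the direct test, and their median was 0.04.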

How the data were processed

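The authors prepared TruSeq RNA libraries and, per the study's methods and the submitters' processing notes, mapped reads with Bowtie to an mRNA reference on GRCh38 and quantified them with RSEM. The deposited unit is TPM, 1 file a sample, scaled by the authors to the same total. The study's count test could not be run on TPM, so limma 3.58.1 in R 4.3.3 was used with the study's thresholds (FDR of 1%, change of 3-fold), on log2(TPM + 1) with the trend and robust options of eBayes and Benjamini-Hochberg adjustment over all tested genes. A gene was tested where its TPM reached 1 in 2 or more samples of the fit. The 4-sample fit set late against EED-/- H1 (2 residual degrees of freedom), and the 7-sample fit held WT H1, EED-/- H1, the DOX sample and the late samples (3). Files were joined by Ensembl identifier, since 33 gene names differed between the file sets. Python 3.11.15 with pandas 2.3.3 was used for the descriptions, GENCODE v44 for coordinates and RefSeq for promoters. Scripts were tested on simulated data.

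The comparison and the 21 gene lists (573 of 575 entries found) were chosen with earlier results of these data known. The rule for named genes took the PRC2 genes, the called genes with the largest differences, and in each list the shared calls with the largest changes and the genes of highest TPM. Genes named outside that rule, including examples within lists, were chosen after their values were seen. Alternatives changed the pseudocount, filter, scaling, thresholds, eBayes options, source of the spread, the days called late and the samples. Depth is unknown, so precision rests on the samples alone.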

Additional observations from a re-analysis of the deposited data

How the results depend on the processing

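For late against EED-/- H1, where 1 gene was called higher and 1 lower, both counts were 0 with a pseudocount of 0.1, with no filter on low values, with scaling by median ratios, with eBayes with neither trend nor robust, and with days 20, 24 and 28 as late. Asking for a TPM of 1 or more in each of the 4 samples gave 0 higher, and quantile normalization kept both counts. With an FDR of 5% and any fold change 5 were lower. The spread of 14 samples gave 36 and 122, and that of 12 samples, added after the data were seen, gave 13 and 47. Leaving out 1 sample gave 0 to 2 higher and 0 to 1 lower. The interaction gave 1 higher with a pseudocount of 0.1 and 1 with an FDR of 5%, and DOX against WT H1 gave 1 lower with a pseudocount of 0.1. Rises on withdrawal numbered 740 without the filter and 3887 at an FDR of 5%, and falls 183 and 1597, with 616 after scaling. At an FDR of 5% EED-/- H1 gave 5871 rises and 3072 falls. Leaving out 1 WT H1 or EED-/- H1 sample gave 961 to 1581 rises and 335 to 673 falls in EED-/- H1, and 593 to 703 rises and 101 to 180 falls on withdrawal. Leaving out day 24 or day 28 gave 3023 or 3034 rises and 1156 or 1159 falls in EED-/- H1, and 2276 or 1364 rises and 622 or 397 falls on withdrawal. Without the filter the shared share of the knockout rises was 31.1% and of the falls 19.7%, and at an FDR of 5% 54.1% and 44%. The causes were not tested, apart from fewer samples or more genes tested. Leaving out 1 sample, the shared share of the knockout rises was 35.5% to 58.5%, and of the falls 22.1% to 43.3%. Of 28 single genes, those tested under an alternative kept their direction there, and some were not tested under stricter filters or with a sample left out. No paired analysis was possible because the late samples carry no replicate number shared with EED-/- H1.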

Other observations

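A list of genes induced by the oxidative stress factor NFE2L2 was drawn up after values had been seen. Of 19 such genes, 16 had a negative difference from EED-/- H1, with a median of -0.74 (-0.63 after scaling) beside -0.17 for all genes, and values did not overlap for 13 that were lower and 2 that were higher, beside 34.7% and 18.1% of all genes. Their summed TPM was 1598 at day 24 and 2179 at day 28, against 2127 and 2336 in EED-/- H1, so day 28 lay within the knockout range. NQO1, a quinone reductase, was at 31.5 and 28.3 in the late samples, 200 and 99.5 in EED-/- H1, 64.1 and 47.5 in WT H1 and 42.8 with DOX. TXNRD1, a thioredoxin reductase, was at 33.9 and 42.0 in the late samples, 163 and 152 in EED-/- H1, 84.3 and 77.5 in WT H1 and 29.9 with DOX. SLC7A11, a cystine transporter, was at 3.89 and 3.31 against 16.4 and 17.7, and was at 2.67 with DOX and 8.83 and 9.53 in WT H1. HMOX1, a heme oxygenase, did not follow this order, with 22.6 at day 24 and 279 at day 28 against 142 and 182. NFE2L2 itself was at 59.2 and 69.0 against 84.6 and 77.5. None was called in the direct test with 4 samples (limma).

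MEDAG and MT2A differed from their references in opposite directions in the lines, and of these changes the rise of MEDAG in EED-/- H1 was called. MEDAG, a regulator of fat cell differentiation, was at 4.01 with DOX and at 0.23 and 0 in the late samples, but at 3.51 and 1.97 in WT H1 and 14 and 18 in EED-/- H1. MT2A, a metallothionein, was at 39.7 with DOX and 2.35 and 2.36 in the late samples, but at 18.1 and 6.42 in WT H1 and 127 and 32.2 in EED-/- H1. The interaction was not called for either gene (adjusted p = 0.176 and 0.222, limma).

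HIST2H2AA3 and HIST2H2AA4, which encode the same histone H2A and share nearly all of their sequence, were listed at 0 in opposite samples. HIST2H2AA3 was listed at 0 at days 24 and 28 and at 36.1 and 28.5 in EED-/- H1, and HIST2H2AA4 was at 6.64 and 20.0 and listed at 0 in both knockout samples. How reads were divided between such copies is uncertain.

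CST1, a cystatin, was among the most abundant transcripts of both end states, at 6053 and 18692 in the late samples and 2171 and 7977 in EED-/- H1, from 6.81 with DOX and 1.35 and 2.60 in WT H1. It was at 4915 by day 20.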
